A study of Mus musculus with 12 samples.

Results

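The Mir-19 and Mir-92 families are miRNAs encoded largely by the same polycistronic transcripts, and their levels were examined in the hippocampus of mice whose grandfathers had or had not exercised. Members were taken by name, as every row of the deposited table whose leading miRNA name belongs to either family, with both arms of a hairpin included. The rule gave 9 of 513 rows, 2 of the Mir-19 family and 7 of the Mir-92 family. The 12 libraries come from male wild-type C57BL/6J mice, a standard inbred strain. The exercised lineage holds 6 mice of the F2 generation descended through the male line from exercised grandfathers (F0), and the sedentary lineage holds 6 F2 mice from sedentary grandfathers. Exercise is stated for the grandfathers alone, and no age or litter is given for the F2 mice. Small RNA was sequenced from hippocampal RNA, and each library has its own numbered mouse.

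A miRNA is cut from a hairpin with a 5p and a 3p arm. The arm that is mostly loaded into Argonaute is the guide, the other (marked here with an asterisk) is the passenger, and bases 2 to 8 of the guide form the seed that pairs with target mRNAs. In mammals the cluster in the noncoding gene Mir17hg encodes members of the Mir-17, Mir-19 and Mir-92 families together, and it is known for promoting proliferation, including that of neural progenitors. Within it, miR-92a is known from mouse vessels as a restraint on new vessel growth. A paralogous cluster on the X chromosome and another within Mcm7, a DNA replication gene, carry further copies.

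Rows follow a family and paralogue (P) naming, and mature sequences from RefSeq (GRCm38.p6, the assembly of mm10) were used to see what the rows can hold. Among RefSeq's mouse genes, 3 carry the Mir-19 seed GUGCAAA in 2 different mature sequences, and only miR-19b-3p occurs at 2 loci. The row shared by Mir-19-P2a and Mir-19-P2b was therefore read as miR-19b-3p and the row Mir-19-P1_3p as miR-19a-3p. By the same reasoning the row shared by Mir-92-P1a and Mir-92-P1b was read as miR-92a-3p, the only sequence with the Mir-92 seed AUUGCAC found at 2 loci. The remaining sequences with that seed, apart from miR-32 and miR-367, are miR-25-3p, miR-92b-3p and miR-363-3p. Which of these belongs to Mir-92-P2, Mir-92-P3 or Mir-92-P4 is not given in the sources used here, so these rows keep their paralogue names. The guide sequences are shown because the members of a family share a seed and differ mainly outside it; capitals mark the seed.
miR-19a-3p: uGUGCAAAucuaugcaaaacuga
miR-19b-3p: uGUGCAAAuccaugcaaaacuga
miR-92a-3p: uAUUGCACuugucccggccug
miR-25-3p: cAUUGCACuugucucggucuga
miR-92b-3p: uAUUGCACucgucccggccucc
miR-363-3p: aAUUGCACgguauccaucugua
miR-32-5p: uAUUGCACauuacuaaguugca
The Mir-19 sequences are identical at 22 of 23 bases, with the single substitution U11C from miR-19a-3p to miR-19b-3p, counted from the 5′ end. Against the 21 bases of miR-92a-3p, miR-92b-3p is identical at 19, miR-25-3p at 18 and miR-363-3p at 10. The guides also differ in base composition, with 34.8% and 39.1% G and C in miR-19a-3p and miR-19b-3p, 40.9% in miR-363-3p, and 50% to 63.6% in miR-25-3p, miR-92a-3p and miR-92b-3p.

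The loci lie on 4 chromosomes of GRCm38. Mir19a (chr14:115044000-115044081), Mir19b-1 (chr14:115044305-115044391) and Mir92-1 (chr14:115044427-115044506) follow each other on the plus strand, each in an exon of the noncoding Mir17hg in GENCODE vM21. On the minus strand of the X chromosome, Mir19b-2 (chrX:52741983-52742066), Mir92-2 (chrX:52741838-52741928) and Mir363 (chrX:52741693-52741767) lie side by side with no other annotated gene over them. Mir25 (chr5:138165321-138165404) lies in the protein-coding gene Mcm7 on the same strand, and Mir92b (chr3:89227116-89227198) overlaps no other gene. Reads of miR-19b-3p and miR-92a-3p cannot be divided between chromosome 14 and the X chromosome, since the copies have the same mature sequence.

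The deposited values are normalized counts, that is reads divided by 1 size factor per library, and libraries held 6862623 to 10219856 reads. Neuronal markers were abundant in every library, with Mir-9, Mir-124 and Mir-128 together at 1861684 to 3204237 normalized counts. F2_exercised replicate 1 stood apart: its median distance from the median of all libraries was 0.38 on the log2 scale, against 0.11 to 0.22 in the other 11. It held the lowest value of the 12 libraries for 23.8% of the 474 tested arms and the highest for 19.8%. Values without it are given for the Mir-19 guides, the Mir-92-P1a/P1b guide, 2 ratios, the Mir-17 arms and the number of members with a difference below 0.

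The Mir-92 guides were moderately abundant, and the most abundant of them was also the steadiest. Mir-92-P3_3p ranked 93 of 513 rows. It had 3919, 4124 and 4643 normalized counts (lowest, median and highest) in the exercised lineage, against 3964, 4328 and 4524 in the sedentary lineage. Its highest library exceeded its lowest by 1.18-fold, and its within-lineage SD of 0.073 (log2 scale) was undercut by 2 of the 474 tested arms, whose median SD was 0.29. Counting error alone gives a coefficient of variation (CV) of 1.52% at its mean depth, and the measured CV over the 12 libraries was 5.05%.

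Mir-92-P2_3p, at rank 122, had 1937, 2261 and 2676 normalized counts in the exercised lineage, against 1848, 2274 and 3273 in the sedentary lineage. The highest of these was F2_sedentary replicate 2, while the other 5 sedentary-lineage libraries reached at most 2377. The Mir-92-P1a/P1b row, the guide miR-92a-3p, ranked 151. It had 789, 1129 and 1427 normalized counts in the exercised lineage, against 1208, 1374 and 1581 in the sedentary lineage. F2_exercised replicates 1, 4 and 5, at 939, 789 and 983, lay below every sedentary-lineage library, and the other 3 lay within the sedentary range, so the groups overlapped. Mir-92-P4_3p was low, at rank 401, with 16.0, 21.5 and 46.4 normalized counts in the exercised lineage, against 13.3, 32.7 and 47.1 in the sedentary lineage.

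**Figure D1:**
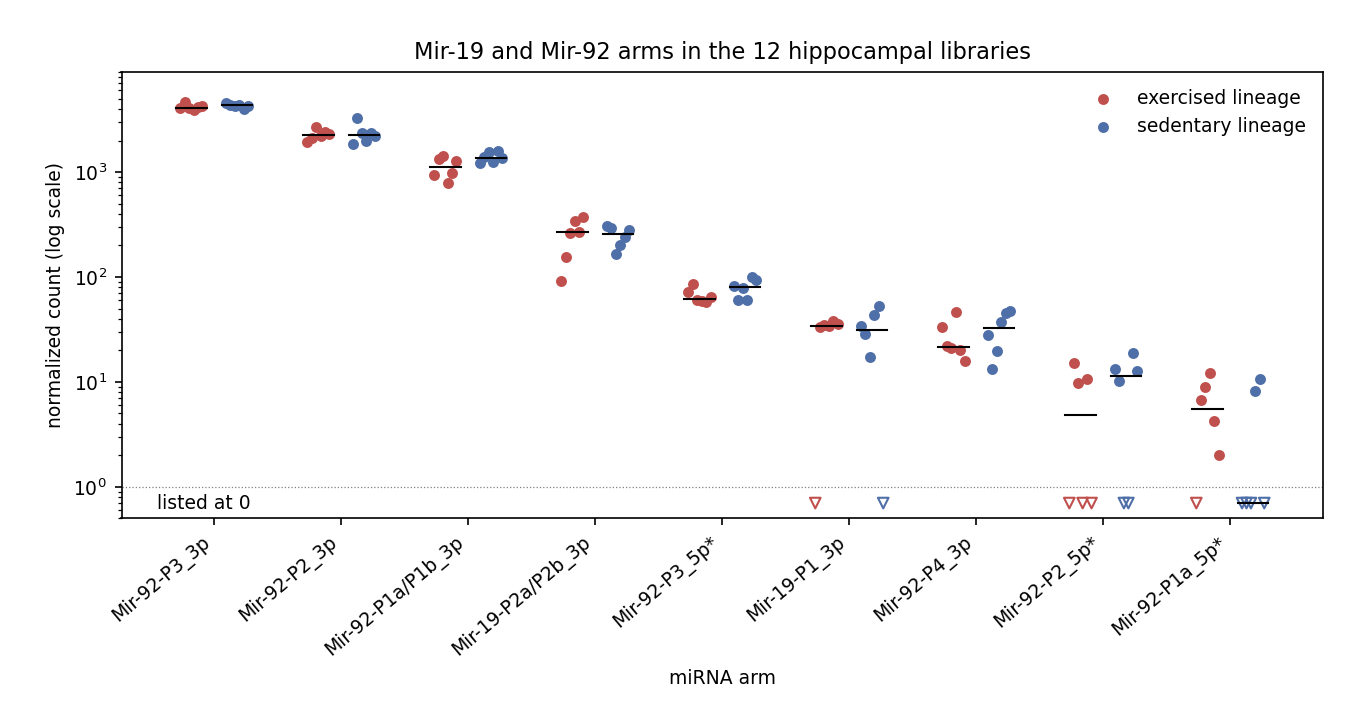
Normalized counts (log scale) of the 9 Mir-19 and Mir-92 arms, ordered by mean level, in the 6 exercised-lineage libraries (left of each pair) and the 6 sedentary-lineage libraries; each point is 1 library, bars are medians and open triangles are values listed at 0. Levels run from 4643 for Mir-92-P3_3p to 0, and the groups overlap in every arm.

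Mir-92-P3_3p led the Mir-92 family in every mouse. It held 54.5% ± 3.01 of the family's counts in the exercised lineage, against 52.9% ± 4.23 in the sedentary lineage (mean ± SD of 6 mice each). Mir-92-P2_3p held 29.6% ± 2.61 and 28.5% ± 4.13, and the Mir-92-P1a/P1b guide 14.5% ± 2.35 and 17.1% ± 1.74. The remaining 4 arms of the family held little, with Mir-92-P3_5p* the largest of them at 0.864% ± 0.129 and 0.982% ± 0.223. Counts compare reads and not molecules, since arms differ in how well they are captured in small RNA libraries. The family as a whole took 0.0957% ± 0.0126 of all normalized counts in the exercised lineage, against 0.0950% ± 0.00869 in the sedentary lineage.

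**Figure D2:**
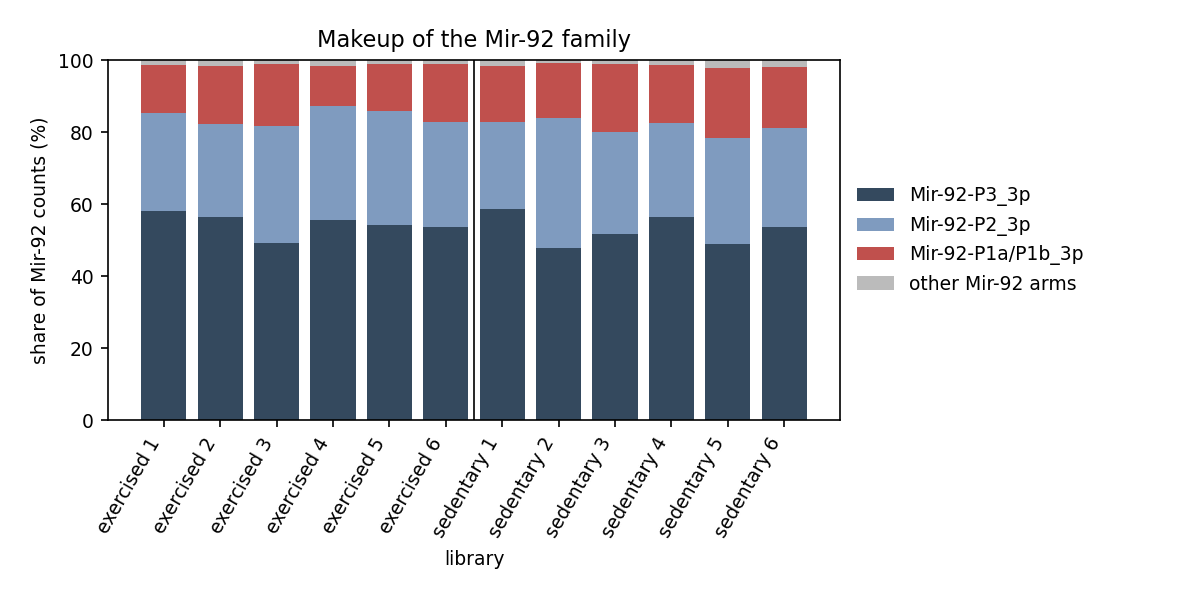
Share of each arm in the summed normalized counts of the Mir-92 family (percent), 1 bar per library, with the exercised lineage left of the line and the sedentary lineage right of it. Mir-92-P3_3p takes the largest share in all 12 libraries, between 47.9% and 58.7%.

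Passenger arms of the Mir-92 family were rare. Mir-92-P3_5p* had 58.3, 62.3 and 85.9 normalized counts in the exercised lineage, against 60.5, 80.5 and 100.5 in the sedentary lineage. Only this passenger arm had a value above 0 in every library. Mir-92-P2_5p* was listed at 0 in F2_exercised replicates 1, 4 and 6 and in F2_sedentary replicates 3 and 4, and lay between 9.71 and 18.9 in the other 7 libraries. Mir-92-P1a_5p* was listed at 0 in F2_exercised replicate 1 and in F2_sedentary replicates 1, 2, 3 and 6, with 1.99 to 12.3 elsewhere. From the mean of the other libraries, 6.04 to 9.06 reads would have been expected where Mir-92-P2_5p* was at 0, which counting error gives with a Poisson probability of 0.000116 to 0.00238, and every value of this arm above 0 stood for 10 to 23 reads. Where Mir-92-P1a_5p* was at 0, 3.89 to 5.32 reads would have been expected, with a Poisson probability of 0.00488 to 0.0204. These probabilities are for exactly 0 reads, while the smallest value above 0 of any arm stood for 2 to 6 reads, depending on the library. In F2_exercised replicate 1 it stood for 6 reads, where 5.21 of Mir-92-P1a_5p* would have been expected. The probability of a listed 0 may therefore be higher than that of 0 reads. What set these values to 0 was not tested.

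The Mir-19 guides were far less abundant than the main Mir-92 guides and more variable. The Mir-19-P2a/P2b row, the guide miR-19b-3p, ranked 256. It had 92.5, 267 and 375 normalized counts in the exercised lineage, against 166, 259 and 303 in the sedentary lineage. The lowest value was in F2_exercised replicate 1 and the next, 156, in F2_exercised replicate 2. Its highest library exceeded its lowest by 4.05-fold, with a CV of 32.9% where counting error gives 6.35%.

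Mir-19-P1_3p, the guide miR-19a-3p, was listed at 0 in F2_exercised replicate 1 and in F2_sedentary replicate 6. In the other 5 exercised-lineage libraries it lay between 33.7 and 38.2 normalized counts, and in the other 5 sedentary-lineage libraries between 17.4 and 52.7. From the mean of the other 11 libraries, 34.7 reads would have been expected in F2_exercised replicate 1 and 35.4 in F2_sedentary replicate 6. With that many reads expected, counting error gives a 0 with a Poisson probability of 8.42e-16 and 4.09e-16. Here too, what set them to 0 was not tested. Over all members, 12 of 108 values were 0, in 3 of the 9 arms, 5 of them from mice of the exercised and 7 from mice of the sedentary lineage.

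The order of levels was the same in all 12 libraries for the 5 most abundant arms. Mir-92-P3_3p exceeded Mir-92-P2_3p by 1.33 to 2.45-fold, and Mir-92-P2_3p exceeded the Mir-92-P1a/P1b guide by 1.504 to 2.81-fold. That guide exceeded the Mir-19-P2a/P2b guide, which comes from the same clusters, by 2.31 to 10.2-fold. Further down, neighbours changed places. Mir-19-P1_3p was above Mir-92-P4_3p in 8 of 12 libraries, and Mir-92-P2_5p* above Mir-92-P1a_5p* in 7 of 12.

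No Mir-19 or Mir-92 arm was called between the lineages. Differences were tested with limma on log2(normalized count + 1) over the 474 arms with a mean of at least 10, and arms were called at a p below 0.05 after Benjamini-Hochberg adjustment. Of the 9 members 7 passed that filter, and the passenger arms Mir-92-P2_5p* and Mir-92-P1a_5p* did not. Among the tested members 0 were called, where 0% of all tested arms were called. At an unadjusted p below 0.05 there was 1 of the 7, where 7.17% of all tested arms were; its difference was below 0, as for 3.59% of all tested arms. Of the 7 differences 6 lay below 0 with a median of -0.094, while 50.2% of all tested arms lay below 0 with a median of -0.0013. Under scaling by library totals or by the upper quartile, 4 of the 7 lay below 0, where the median of all tested arms moved to 0.085 and 0.083. Leaving out 1 library in turn gave from 4 (without F2_exercised replicate 1) to 7 below 0 (for example without F2_exercised replicate 4). The groups overlapped for all 7, where 0% of all tested arms had groups that did not overlap.

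The member with the smallest p was the Mir-92-P1a/P1b guide (miR-92a-3p), which averaged 1123 ± 253 normalized counts in the exercised lineage, against 1389 ± 153 in the sedentary lineage (mean ± SD of 6 mice each). Its difference was -0.33 on the log2 scale (SE 0.14, 95% confidence interval -0.64 to -0.019), and 5 of the 6 exercised-lineage mice lay below the median of the sedentary lineage. The limma unadjusted p was 0.0391 and the adjusted p 0.532, so it missed the threshold. Without F2_exercised replicate 4, its lowest library, the difference was -0.24, and without F2_exercised replicate 1 it was -0.29 (limma unadjusted p = 0.0940 and 0.0797). Omitting a sedentary-lineage library could have a similar effect, as without F2_sedentary replicate 5 (-0.29, limma unadjusted p = 0.0796). Scaling by totals or by the upper quartile gave -0.24 and -0.25 (limma unadjusted p = 0.166 and 0.110). Of the 27 alternatives run, 15 had a limma unadjusted p below 0.05 for this guide. In bulk tissue, fewer cells of a type and less RNA per cell cannot be told apart.

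The more abundant Mir-92 guides had differences near 0, with a narrower interval for Mir-92-P3_3p than for Mir-92-P2_3p. Mir-92-P3_3p averaged 4191 ± 247 and 4296 ± 183 normalized counts in the exercised and sedentary lineage, a log2 difference of -0.037 (95% confidence interval -0.18 to 0.11), which in linear terms spans 0.880 to 1.08-fold. Mir-92-P2_3p averaged 2281 ± 253 and 2339 ± 500, a log2 difference of -0.019 (-0.30 to 0.26, or 0.812 to 1.20-fold). Both differences lay above 0 when libraries were scaled by totals or by the upper quartile. For Mir-92-P3_5p* the difference was -0.24 (-0.59 to 0.10) and for Mir-92-P4_3p -0.22 (-0.96 to 0.52). Limma adjusted p-values of these 4 arms ran from 0.571 to 0.977.

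The Mir-19 guides gave wide intervals. The Mir-19-P2a/P2b guide averaged 249.8 ± 108 normalized counts in the exercised lineage, against 246 ± 54.5 in the sedentary lineage, a log2 difference of -0.094 (95% confidence interval -0.75 to 0.56, limma adjusted p = 0.955). Without F2_exercised replicate 1 the difference was 0.16, and without F2_exercised replicate 2 it was 0.013. The log2 difference of Mir-19-P1_3p was 0.076 (-2.26 to 2.42, adjusted p = 0.995), and it was 0.092 (adjusted p = 0.950) with the values of 0 treated as missing and 0.94 (adjusted p = 0.661) without F2_exercised replicate 1.

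**Figure D3:**
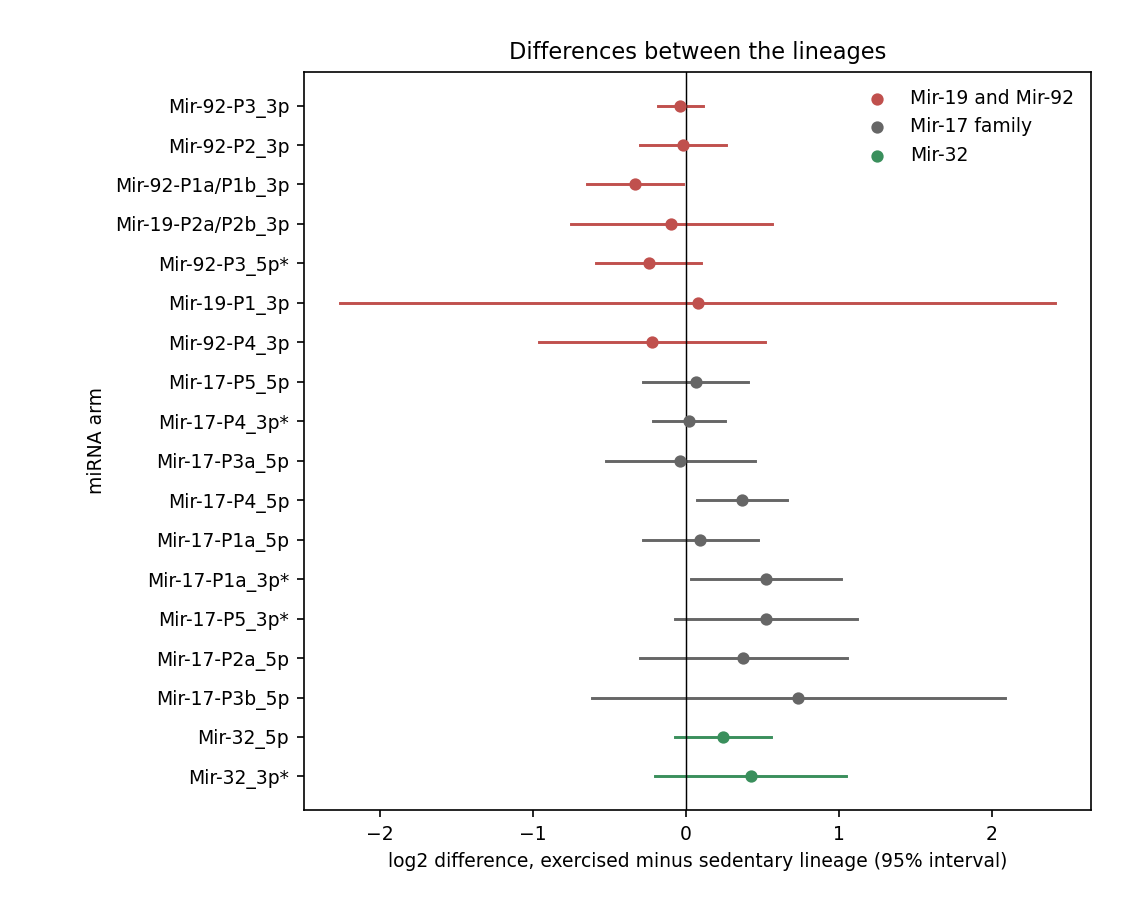
Differences between the lineages (exercised minus sedentary) on the log2(normalized count + 1) scale for the 7 tested Mir-19 and Mir-92 arms, the 9 Mir-17 family arms and both Mir-32 arms; points are limma estimates and lines 95% confidence intervals. The interval of Mir-19-P1_3p, the arm with values of 0, is the widest, from -2.26 to 2.42.

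The libraries carry submitter codes whose leading characters put them into 4 sets of 3, with R31 and R41 covering the exercised lineage and S11 and S41 covering the sedentary one, and no label explains them. For the Mir-19-P2a/P2b guide the exercised-lineage sets had 92.5 to 265 normalized counts in R31 and 269 to 375 in R41. Its log2 difference was 0.43 without the R31 libraries and -0.62 without the R41 libraries (limma adjusted p = 0.456 and 0.555). For Mir-92-P4_3p the sedentary-lineage sets had 13.3 to 28.01 in S11 and 37.3 to 47.1 in S41. Its difference was -0.77 without S11 and 0.33 without S41 (limma adjusted p = 0.750 and 0.827). How often sets of 3 libraries lie apart over all tested arms was not counted, so these ranges show no effect of the sets. For the Mir-92-P1a/P1b guide the difference was -0.47 without R31 and -0.19 without R41 (limma adjusted p = 0.456 and 0.633). Of the 7 tested members, 4, 7, 5 and 6 had differences below 0 without R31, R41, S11 and S41. Over all tested arms the consensus correlation of limma within these sets was -0.0041. With sets of equal size a random block for the set cannot move a difference, and with a correlation so near 0 it hardly changes p. With that block the Mir-92-P1a/P1b guide was at -0.33 (limma unadjusted p = 0.0383, adjusted p = 0.524). With or without it, 34 arms had an unadjusted p below 0.05.

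Ratios within a library, taken after 1 was added to each value, hardly depend on its size factor where both arms are well above 1. Where an arm is at 0 they do depend on it. Exact permutation tests compared 5 ratios between the lineages. The passenger over guide ratio of Mir-92-P3 was -5.97 ± 0.149 on the log2 scale in the exercised lineage, against -5.76 ± 0.340 in the sedentary lineage (difference -0.21, two-sided exact permutation p = 0.242, adjusted over the 5 ratios p = 0.606). The ratio of the Mir-19-P2a/P2b guide to Mir-92-P3_3p was -4.21 ± 0.793 and -4.15 ± 0.329 (difference -0.057, exact permutation p = 0.892, adjusted 0.892), and the difference was 0.19 without F2_exercised replicate 1. Its ratio to the Mir-92-P1a/P1b guide, a comparison chosen after the values were seen, was -2.28 ± 0.819 and -2.52 ± 0.435 (difference 0.24, exact permutation p = 0.545, adjusted 0.682). That difference was 0.45 without F2_exercised replicate 1 and 0.023 without F2_exercised replicate 4, and 0.90 without the R31 libraries (exact permutation p = 0.0238, adjusted 0.119). The passenger over guide ratios of Mir-92-P2 and Mir-92-P1, which rest on arms with values of 0, differed by -0.72 and 1.53 (exact permutation p = 0.483 and 0.117, adjusted 0.682 and 0.584). For Mir-92-P1 the passenger is Mir-92-P1a_5p* alone, while the guide row is shared by Mir-92-P1a and Mir-92-P1b. The Mir-92-P1 ratio is therefore not the arm ratio of a single hairpin. Adding 0.5 or 5 in place of 1 gave -0.89 or -0.37 for Mir-92-P2 and 1.95 or 0.80 for Mir-92-P1. With 1 library left out in turn, the Mir-92-P2 ratio differed by -1.24 to -0.35, the end values being those with F2_sedentary replicate 3 and F2_exercised replicate 6 omitted, and the Mir-92-P1 ratio by 1.16 to 1.98. Without S11 the Mir-92-P1 ratio differed by 0.42, and without S41 by 2.65 (exact permutation p = 0.690 and 0.0357, adjusted 0.863 and 0.179).

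The Mir-17 family, which acts through another seed and is transcribed in the same clusters, had 9 arms in the table, all tested. Their differences lay above 0 for 8 and below 0 for 1, with a median of 0.37 and 0 called, where 49.8% of all tested arms lay above 0. The most abundant, Mir-17-P5_5p, averaged 1240.5 ± 279.8 normalized counts in the exercised lineage, against 1161 ± 128 in the sedentary lineage (log2 difference 0.065). Mir-17-P4_3p* averaged 468 ± 43.8 and 464 ± 70.1, and Mir-17-P3a_5p 341 ± 99.2 and 335 ± 50.8. An unadjusted p below 0.05 was reached by 2 of the 9, Mir-17-P4_5p (difference 0.37) and Mir-17-P1a_3p* (0.52), with a limma adjusted p of 0.532 for each, where 3.59% of all tested arms reached it with a difference above 0. Mir-17-P1a_3p* was highest in F2_exercised replicate 1, at 67.5 against 21.9 to 49.9 in the other libraries. Without that library, an alternative chosen after the values were seen, its difference was 0.37 and that of Mir-17-P4_5p 0.36 (limma unadjusted p = 0.0854 and 0.0313, adjusted p = 0.633 for each). All 9 differences then lay above 0, with a median of 0.25, where 50.8% of all tested arms did.

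Mir-32 has the Mir-92 seed on its 5p arm but is transcribed elsewhere, from an intron of Tmem245 (chr4:56895229-56895298). Mir-32_5p averaged 456 ± 47.2 normalized counts in the exercised lineage, against 393 ± 99.2 in the sedentary lineage, a log2 difference of 0.24 (SE 0.15, limma adjusted p = 0.532). Its passenger arm Mir-32_3p* averaged 21.6 ± 8.52 and 15.6 ± 4.67. On average Mir-32_5p was higher in reads than the Mir-19-P2a/P2b guide and lower than the 3 leading Mir-92 guides.

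The row most like the Mir-19-P2a/P2b guide over the 12 libraries was a Mir-17 family arm. Likeness was measured as the SD of the log2 ratio of 2 arms over the libraries, which is small where 2 arms move together or both hardly vary. Among the 467 tested rows outside both families the smallest SD was that of Mir-17-P3a_5p, 0.28, where the median over these rows was 0.64. Next came Mir-145_5p, Mir-342_3p, Mir-210_3p and the 5p arm shared by the Mir-199 genes, at 0.31 to 0.32. Further Mir-17 family guides, examined after the values were seen, were Mir-17-P5_5p with 0.34 and Mir-17-P1a_5p with 0.36. The other 6 of the 9 Mir-17 arms lay above that median, from Mir-17-P4_5p with 0.647 to Mir-17-P3b_5p with 1.18. The Mir-92-P1a/P1b guide, in contrast, had an SD of 0.64 against the Mir-19-P2a/P2b guide, which placed it at 229 of 473 rows in likeness. Without F2_exercised replicate 1, Mir-17-P3a_5p kept an SD of 0.28 but placed 5 of 467, behind the shared Mir-199 5p arm at 0.21, Mir-154-P6_3p at 0.22, Mir-148-P3_3p and Mir-154-P34_5p*. The median over the 467 rows was then 0.49, and Mir-17-P4_5p (0.44), Mir-17-P1a_3p* (0.45) and Mir-17-P2a_5p (0.48) lay below it. Mir-17-P4_3p*, Mir-17-P5_3p* and Mir-17-P3b_5p stayed above it, at 0.54, 0.51 and 0.99. Values of 1 library share its size factor, and the likeness carries no test.

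The rows most like Mir-92-P3_3p were others that hardly varied. They were the Mir-24 3p arm shared by Mir-24-P1 and Mir-24-P2, Mir-154-P17_3p, Mir-29-P1a_3p, Mir-22-P1a_3p and Mir-337_5p, with SDs of the log2 ratio from 0.10 to 0.11, where the median over 467 rows was 0.30. The Mir-92-P1a/P1b guide was nearest within its family to the 2 Mir-92-P3 arms, with an SD of 0.29 to Mir-92-P3_3p and to Mir-92-P3_5p*, followed by 0.31 to Mir-92-P2_3p. Since Mir-92-P3_3p hardly varied, the SD to it mainly carries the spread of the Mir-92-P1a/P1b guide itself, whose within-lineage SD was 0.26.

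F2_exercised replicate 1 had the lowest value of the 12 libraries for the Mir-19-P2a/P2b guide and for 3 Mir-17 family guides. The Mir-19-P2a/P2b guide had 92.5 normalized counts there, against 156 to 375 in the other 11 libraries. Mir-17-P3a_5p had 148, against 252 to 396, and Mir-17-P1a_5p had 149, against 202 to 301. Mir-17-P5_5p had 727, against 1002 to 1465. The leading Mir-92 guides were lowest in other libraries. Mir-92-P3_3p, at 4108, Mir-92-P2_3p, at 1937, and the Mir-92-P1a/P1b guide, at 939, lay within the range of the other libraries. They stood at -0.060, -0.25 and -0.49 from the median of the other 11 on the log2 scale, against -1.53 for the Mir-19-P2a/P2b guide. The Mir-17 arms Mir-17-P1a_3p*, Mir-17-P2a_5p and Mir-17-P3b_5p, at 67.5, 30.5 and 18.5, were highest there. Over all 474 tested arms, F2_exercised replicate 1 was lowest for 23.8% and highest for 19.8%.

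**Figure D4:**
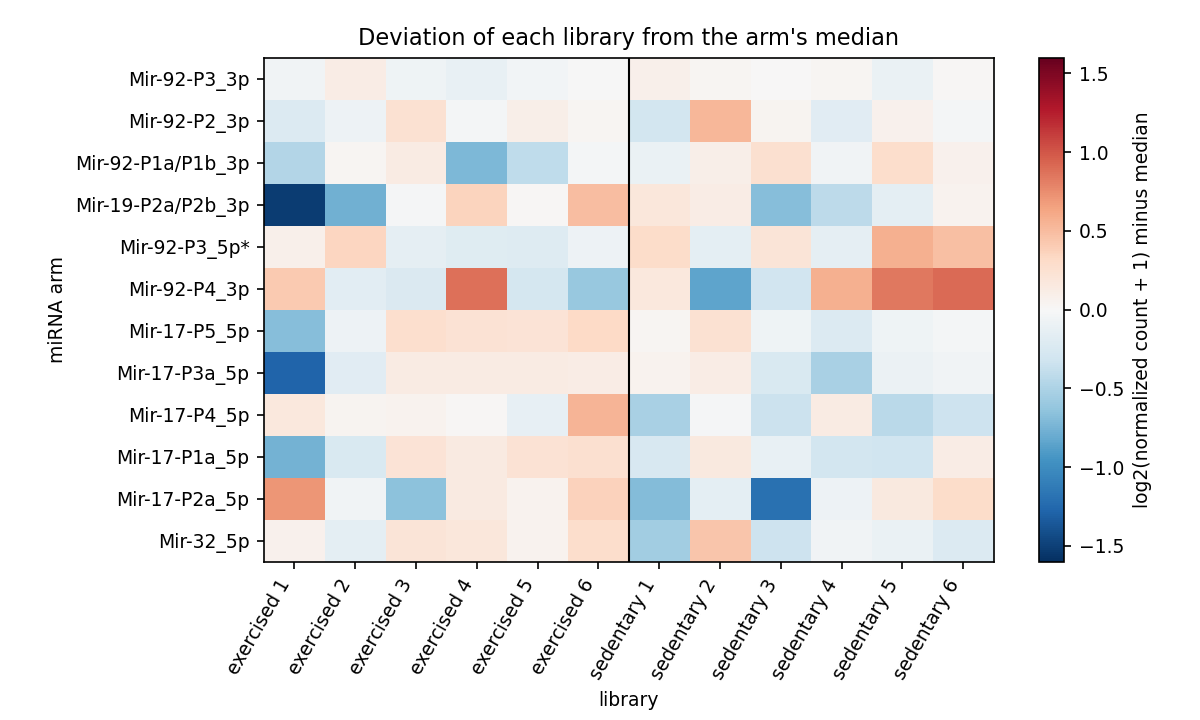
Deviation of each library (columns, exercised lineage left of the line and sedentary lineage right of it) from the median of the arm over the 12 libraries, on the log2(normalized count + 1) scale, for the 6 tested Mir-19 and Mir-92 arms without values of 0, 5 Mir-17 family guides and Mir-32_5p. F2_exercised replicate 1 is the lowest library for the Mir-19-P2a/P2b guide, at -1.52, while Mir-92-P3_3p stays within -0.12 and 0.12 in all libraries.

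Markers of other cell types also varied between the libraries. Erythroid miRNAs (5 arms of Mir-144, Mir-451 and Mir-486) summed to 631, 658 and 838 normalized counts (lowest, median and highest) in the exercised lineage, against 733, 841 and 1219 in the sedentary lineage, with Mir-486_5p the most abundant at 479 ± 61.3 and 549.6 ± 69.8, and Mir-486_3p* listed at 0 in 1 sedentary-lineage library. Of these 5 arms, 1 had an unadjusted p below 0.05, where 7.17% of all tested arms did. It was Mir-451_5p, with a log2 difference of -0.65 (limma unadjusted p = 0.0250, adjusted p = 0.532). The 5p and 3p arms of Mir-144 had -0.79 and -0.27 (limma unadjusted p = 0.0615 and 0.617). Mir-486_5p had -0.20 and Mir-486_3p* 0.61 (limma unadjusted p = 0.103 and 0.360). Choroid plexus miRNAs (6 arms of Mir-204, Mir-448 and Mir-1298) summed to 30190, 43557 and 163753 normalized counts in the exercised lineage, against 28976, 87987 and 164782 in the sedentary lineage, with Mir-448_5p* listed at 0 in 1 exercised-lineage library. The endothelial Mir-126 arms summed to 87297 to 124330 and 93871 to 114704 in the exercised and sedentary lineage. Microglia and leukocyte miRNAs (7 arms) summed to 1672 to 2225 and 1751 to 2182, and oligodendrocyte miRNAs (5 arms) to 14078 to 19265 and 9949 to 20573. The highest erythroid sum, 1219, was in F2_sedentary replicate 2, the library with the highest Mir-92-P2_3p. The part of these cells in the Mir-19 and Mir-92 values was not tested.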

How the data were processed

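Small RNA of 12 mouse hippocampi was sequenced, 6 libraries per lineage, grouped by the sample titles. Extraction used a miRNeasy kit and library preparation a NEBNext small RNA kit, per the labels' protocols. The submitters' processing notes name Bowtie 1.3.0, DESeq2 and the mm10 mouse build; how reads were trimmed and how those matching several loci were counted is not given in the sources used. What the authors deposited is a signal that is never negative, the reads of an arm divided by the library's size factor. All were whole multiples (within 0.01) of 1 step per library, taken as 1 read for depth and expected reads. The smallest values stood for 2 to 6 reads, so no count model was fitted.

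Arms with a mean of at least 10 (474 of 513) were tested with limma 3.58.1 (R 4.3.3, empirical Bayes with a mean-variance trend, log2(value + 1), Benjamini-Hochberg over all arms), also run on simulated libraries. SDs and p-values measure the spread between libraries, 1 per mouse, so differences between mice and between library preparations cannot be told apart. Ratios were compared by exact permutation over all 924 assignments. No 2 libraries agreed within counting noise. All members are named; other miRNAs are the Mir-17 and Mir-32 rows, the 5 rows most alike and fixed cell markers. Members and lists were chosen with earlier results of these data known. Python 3.11.15 with pandas 2.3.3 drew the tables. Alternatives covered pseudocount, filter, scaling, values of 0, variance trend, blocks and left-out libraries.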

Additional observations from a re-analysis of the deposited data

Results flagged for a closer look

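In F2_exercised replicate 1, Mir-19-P1_3p was listed at 0, while the next lowest exercised-lineage library had 33.7 normalized counts. In F2_sedentary replicate 2, Mir-92-P2_3p stood at 3273 normalized counts, while the next highest sedentary-lineage library had 2377. Each value lay apart from its group by Dixon's criterion for 6 samples, and chance flags about 1 in 20 groups. Of 28 groups of values examined (9 arms and 5 ratios in 2 lineages), these 2 were marked.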

How the results depend on the processing

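The count of called arms stayed at 0 under all 27 alternatives, over all arms and among the members, with 16 to 57 arms at an unadjusted p below 0.05. The Mir-92-P1a/P1b guide and Mir-92-P3_5p* kept the sign of their difference under every alternative, from -0.47 to -0.19 and from -0.37 to -0.12; limma adjusted p for that guide ran from 0.451 to 0.750. With 1 library left out in turn, differences ran from -0.77 to 0.94 for Mir-19-P1_3p, -0.24 to 0.16 for the Mir-19-P2a/P2b guide, -0.41 to -0.24 for the Mir-92-P1a/P1b guide, -0.082 to 0.083 for Mir-92-P2_3p, -0.067 to -0.018 for Mir-92-P3_3p and -0.44 to -0.086 for Mir-92-P4_3p, and the log2 ratio of the Mir-19-P2a/P2b guide to Mir-92-P3_3p differed by -0.20 to 0.19. The sign turned under scaling by totals and by the upper quartile for Mir-92-P2_3p (0.068 and 0.065) and Mir-92-P3_3p (0.050 and 0.047), where the median of all arms moved to 0.085 and 0.083. It turned without stem R31 for the Mir-19-P2a/P2b guide (0.43), Mir-92-P2_3p (0.0078) and the ratio to Mir-92-P3_3p (0.50). It turned without R41 for Mir-19-P1_3p (-0.82) and the ratio to the Mir-92-P1a/P1b guide (-0.43), without S11 for Mir-92-P2_3p (0.053), and without S41 for Mir-19-P1_3p (-0.42) and Mir-92-P4_3p (0.33). Apart from the scalings, whose construction moves all arms, the cause was not tested. The count models planned as alternatives were not run. Mice with the same number in both lineages are not said to be paired, and their deviations correlated by -0.17 to 0.15, with 1 of 6 closest to its own number. A replicate block cannot move a difference, since every number occurs in both lineages. With it the Mir-92-P1a/P1b guide was at -0.33 (limma adjusted p = 0.720), and 16 arms had an unadjusted p below 0.05, against 34 without it.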
